A study of Caenorhabditis elegans with 2 samples.

Results

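Small nuclear RNA (snRNA) genes, among them the templates of the RNA parts of the spliceosome, were examined in lists of genomic regions from chromatin immunoprecipitation and sequencing (ChIP-seq) of NHR-76 in Caenorhabditis elegans. The members were all genes that the Ensembl annotation of WBcel235 (the genome also called ce11) gives the biotype snRNA on nuclear chromosomes, without the spliced leader genes, whose symbols start with sls-, and without rpr-1 and mrpr-1. The annotation also gives this biotype to the smy genes, whose SmY RNAs are known in C. elegans from spliced leader trans-splicing, and to mir-1831, which is named as a microRNA. These were 99 of 46890 annotated nuclear genes, between 22 and 187 bases long. NHR-76 is a nuclear hormone receptor, one of a large family of zinc-finger DNA-binding proteins in nematodes. The series held 2 libraries, biological replicates 1 and 2 of a single group. Each came from whole L1 larvae, sexes pooled, of strain OP203, which carries unc-119(ed3) on chromosome III and the insertion wgIs203, from which NHR-76 is made with GFP and FLAG at its C-terminus. The labels name no treatment and do not say whether the biosamples were grown as separate cultures. No other group was analysed here, so nothing below is a comparison of conditions, and no test was made.

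An snRNA is a short nuclear transcript that folds with proteins into a small nuclear ribonucleoprotein (snRNP). The snRNPs recognise the ends of introns and carry out splicing. Most snRNAs are made by RNA polymerase II and bind a ring of Sm proteins, while the U6 snRNA is made by RNA polymerase III and binds LSm proteins. In animals a promoter element a short way upstream of the RNA, the proximal sequence element, recruits the snRNA activating protein complex SNAPc at both kinds of gene, and the polymerase III type has a TATA box in addition. C. elegans carries many near-identical snRNA copies, and in this organism sup-6 and sup-39 are known from genetics as U1 snRNA genes in which suppressor mutations arise.

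Each region had 1 deposited signal value per list, the authors' own, in a list from the pooled reads and in a list from each library. A member was given the strongest region that overlapped it by at least 1 bp. A member under no region of a list was called unlisted there, and where no list is named the pooled list is meant. Signals are also given as multiples of the median listed region of the same list, which was 10.3 in the pooled list, 6.50 in replicate 1 and 6.07 in replicate 2. Each of these lists held 30000 regions of a fixed width, 344 bp in replicate 1, 310 bp in replicate 2 and between these in the pooled list. A region was called a peak if it was in the authors' thresholded list, whose 248 regions were the strongest of the pooled list. The sources used here do not give the read depth.

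Of the 99 snRNA genes, 4 were overlapped by a peak, which is 4.04%. The same share was 0.610% over all annotated nuclear genes and 1.49% over the 7872 nuclear genes in the members' length range. The 4 genes were W05B2.8, sup-6, C52E4.8 and F38E11.10. They lay on 4 different chromosomes and came from 4 different sequence families. The RNAs of sup-6 and C52E4.8 are printed below as examples of members with a peak. The RNA of M163.13, the member nearest to the peak threshold from below, is printed with them. The letters are DNA letters of the reference genome (RefSeq, WBcel235). The gene sup-6 (WBGene00006315) lies at chrII:12944803-12944967 on the minus strand, C52E4.8 (WBGene00014291) at chrV:11980118-11980261 on the plus strand and M163.13 (WBGene00045133) at chrX:14476867-14476946 on the plus strand. Capitals mark hallmark letters that are taken up with the families.
sup-6: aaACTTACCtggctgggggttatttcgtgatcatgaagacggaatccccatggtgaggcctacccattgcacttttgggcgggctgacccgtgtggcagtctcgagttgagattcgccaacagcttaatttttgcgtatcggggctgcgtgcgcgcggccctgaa
C52E4.8: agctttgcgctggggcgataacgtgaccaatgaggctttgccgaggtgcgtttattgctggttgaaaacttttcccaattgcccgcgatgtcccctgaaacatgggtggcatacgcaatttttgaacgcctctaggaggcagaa
M163.13: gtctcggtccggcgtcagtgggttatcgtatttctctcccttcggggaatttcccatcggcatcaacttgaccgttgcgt

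The sequence upstream of these genes is shown next, because the listed members share letters there. Each line holds the 80 bases that end at the base before the RNA, 5′ to 3′ on the RNA's own strand. Capitals mark 2 things. The first is the best match, with at most 3 mismatches, to a 17-base stretch made of AACCCG, 5 bases of any kind and TGTCGG. The second is TATATAA. The first lines are the 4 members with a peak, and the next 6 are the strongest listed members without a peak.
W05B2.8: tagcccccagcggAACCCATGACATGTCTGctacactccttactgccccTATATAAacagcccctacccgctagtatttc
sup-6: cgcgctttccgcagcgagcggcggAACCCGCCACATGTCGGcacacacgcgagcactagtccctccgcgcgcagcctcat
C52E4.8: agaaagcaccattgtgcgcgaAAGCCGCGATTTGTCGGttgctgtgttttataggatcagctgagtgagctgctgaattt
F38E11.10: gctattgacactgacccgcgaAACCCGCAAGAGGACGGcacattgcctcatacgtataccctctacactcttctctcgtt
M163.13: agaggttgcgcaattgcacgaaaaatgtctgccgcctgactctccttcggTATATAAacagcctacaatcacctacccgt
sup-39: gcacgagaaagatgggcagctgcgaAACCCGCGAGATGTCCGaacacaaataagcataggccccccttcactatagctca
F54D8.7: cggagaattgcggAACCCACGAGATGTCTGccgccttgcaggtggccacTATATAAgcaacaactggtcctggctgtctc
F08G2.10: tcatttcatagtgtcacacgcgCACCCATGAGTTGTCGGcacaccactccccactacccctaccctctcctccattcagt
T08B6.62: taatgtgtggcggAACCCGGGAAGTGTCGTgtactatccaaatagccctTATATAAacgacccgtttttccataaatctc
R07E5.16: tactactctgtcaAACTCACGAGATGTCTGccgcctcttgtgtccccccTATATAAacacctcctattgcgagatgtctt
The last 3 lines are unlisted relatives of members with a peak, chosen after their values were seen, and do not stand for all unlisted copies. K09B11.11 has the same RNA as W05B2.8, F32D1.12 has an RNA 97.1% identical to it, and T11F9.15 has the same RNA as C52E4.8.
K09B11.11: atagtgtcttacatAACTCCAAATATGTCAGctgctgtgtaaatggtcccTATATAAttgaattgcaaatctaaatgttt
F32D1.12: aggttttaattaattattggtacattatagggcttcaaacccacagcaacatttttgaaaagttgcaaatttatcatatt
T11F9.15: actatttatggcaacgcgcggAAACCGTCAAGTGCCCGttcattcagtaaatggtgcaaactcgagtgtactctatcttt
These stretches are, in the same order and given as plus-strand coordinates, chrIII:10989599-10989678, chrII:12944968-12945047, chrV:11980038-11980117, chrIV:9444562-9444641, chrX:14476787-14476866, chrII:6968559-6968638, chrIII:5080899-5080978, chrII:13829492-13829571, chrIV:4885650-4885729, chrIII:4414105-4414184, chrIV:13435887-13435966, chrV:4354360-4354439 and chrV:11478068-11478147. The genes sup-6, sup-39, F54D8.7, F08G2.10, T08B6.62 and K09B11.11 lie on the minus strand and the others on the plus strand.

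W05B2.8 (WBGene00014543) had the strongest signal of any snRNA gene. Its region had a pooled signal of 62.6, the 33rd strongest of the pooled list and 6.08 times the median region. The library signals were 18.7 in replicate 1 and 39.0 in replicate 2, or 2.87 and 6.43 times the median region (mean 4.65 ± 2.51, SD, n = 2). Both libraries were thus well above their median region, with replicate 2 the higher. The gene lies in an intron of dhc-4, a dynein heavy chain gene, and the nearest protein-coding 5′ end was 1806 bp away. Positions are counted from the RNA's 5′ end, negative upstream. The summit, the middle of the region, lay at -54 bp in the pooled list, -44 bp in replicate 1 and -54 bp in replicate 2. It was thus inside the marked 17 bases in the pooled list and in replicate 2, and between them and TATATAA in replicate 1.

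The U1 gene sup-6 had the most even values of the members with a peak. Its pooled signal was 36.8, rank 142, or 3.57 times the median region. Its library signals were 20.5 in replicate 1 and 21.3 in replicate 2, or 3.16 and 3.51 times the median region (3.33 ± 0.249, SD, n = 2). The libraries gave it like ranks, 129 and 144 of 30000. The gene lies in an intron of F58G1.7, and its region also covered 2 annotated non-coding RNA genes, F58G1.11 and F58G1.12. The pooled summit lay inside the RNA, 55 bp from the 5′ end, with library summits at 57 bp and 4 bp.

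C52E4.8 lies between protein-coding genes, 395 bp from the 5′ end of snr-4, which encodes an Sm protein. Its pooled signal was 36.2, rank 151, or 3.52 times the median region. The library signals were 25.0 in replicate 1 and 11.9 in replicate 2, or 3.84 and 1.96 times the median region (2.90 ± 1.33, SD, n = 2). Here replicate 1 was the higher, the opposite of W05B2.8. The summits of all 3 lists lay at -37 or -36 bp, just 3′ of the marked stretch. The same region was the peak nearest to snr-4, with its summit at -358 bp from the 5′ end of that gene, so the data hold 1 region for both genes.

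F38E11.10 (WBGene00014366) reached the thresholded list with the least even libraries. Its pooled signal was 33.7, rank 184, or 3.28 times the median region. Replicate 2 gave 23.1, rank 114, and replicate 1 gave 6.75, rank 13550, so that the multiples were 3.80 and 1.04 (2.42 ± 1.95, SD, n = 2). In replicate 1 the gene was therefore at the level of the median listed region. The pooled summit lay 95 bp into the RNA, and the library summits lay 117 and 174 bp from the 5′ end. The region also covered hsp-12.3, a small heat shock protein gene, and the non-coding RNA gene F38E11.24.

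Just outside the threshold was M163.13, with a pooled signal of 27.3, rank 356, against 30.8 for the weakest of the 248 peaks. Its library signals were 12.9 and 12.6, or 1.99 and 2.08 times the median region (2.03 ± 0.0633, SD, n = 2), closer together than those of any of the 4 members with a peak. The pooled summit was 3 bp into the RNA, and TATATAA began at -30. No other annotated gene, piRNA genes aside, lay under its region. No other member reached 80% identity to it.

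Each library on its own placed 4 snRNA genes among its 248 strongest regions, but these were not all the same genes. In replicate 1 they were W05B2.8, sup-6, C52E4.8 and F08G2.10, and in replicate 2 they were W05B2.8, sup-6, F38E11.10 and F54D8.7. W05B2.8 and sup-6 were thus the pair shared by both. The remaining 2 in each library ranked from 1025 to 13550 in the other library.

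In the pooled list 28 members were listed, or 28.3%, against 33.3% of all nuclear genes and 22.9% of the genes in the members' length range. The members' share was thus below that of all genes, which include long protein-coding genes, and above that of genes of like length. The pooled signals of the 28 ran from 8.16 to 62.6, with a median of 14.0, or 1.36 times the median region. All 15605 listed nuclear genes had a median of 11.3, or 1.09 times. At a q-value of 0.05 or less for the strongest pooled region there were 7 members, beside 1.47% of all nuclear genes and 2.97% of those in the length range. The 3 beyond the peaks were M163.13, sup-39 and F54D8.7.

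**Figure D1:**
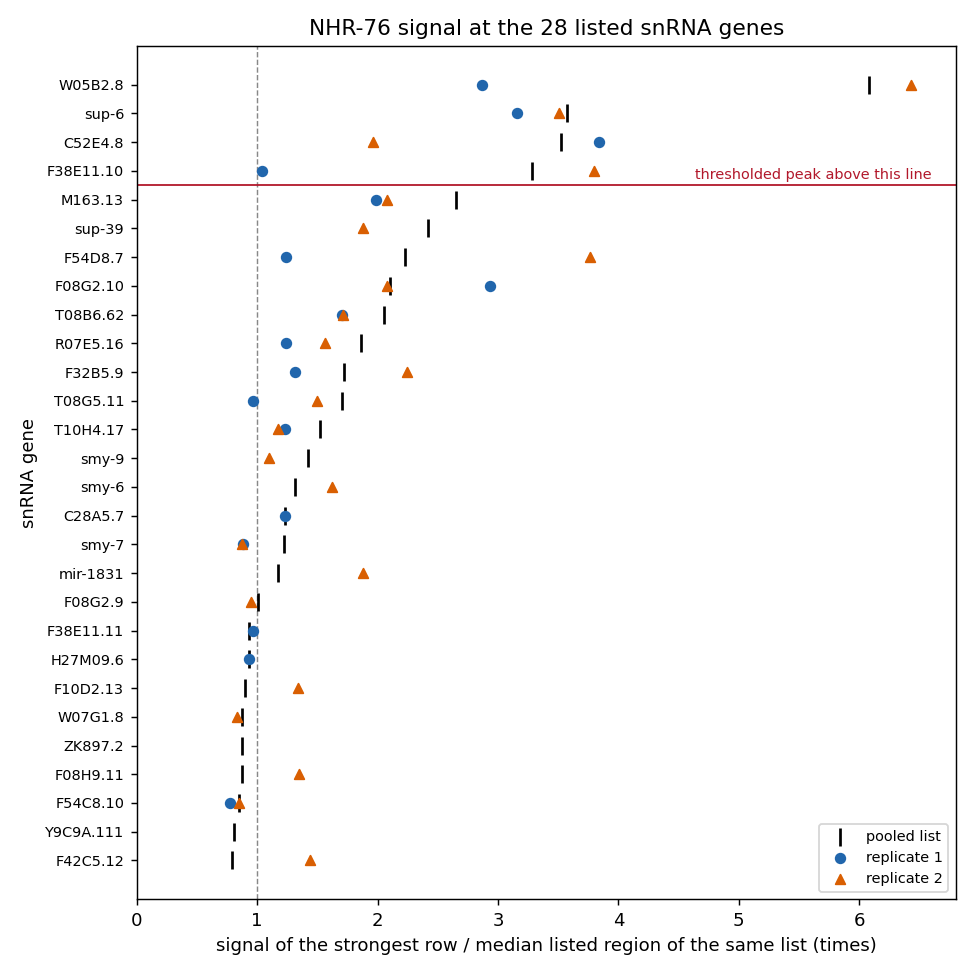
Signal of the strongest region at each of the 28 listed snRNA genes, as a multiple of the median listed region of the same list (x axis, linear), for the pooled list and both libraries. A missing symbol means that the gene was unlisted there, the dashed line is the median region, and the 4 genes above the red line had a thresholded peak, with pooled multiples from 3.28 to 6.08.

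Below M163.13, 9 further members made up the 10 strongest without a peak. The gene sup-39, like sup-6 a U1 gene known from suppressor mutations, had a pooled signal of 24.9, rank 480. It was unlisted in replicate 1 and had 11.4, or 1.88 times the median region, in replicate 2. Its pooled summit lay 199 bp from the 5′ end, beyond the 165-base RNA, while that of replicate 2 lay at -10 bp. F54D8.7 had 22.9 in the pooled list, 8.05 in replicate 1 and 22.8 in replicate 2, or 1.24 and 3.76 times the median region. F08G2.10 had 21.6 in the pooled list, 19.1 in replicate 1 and 12.6 in replicate 2, with summits at 253, -30 and 243 bp from the 5′ end, so that different parts of the locus were strongest in each library.

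T08B6.62 and R07E5.16 had pooled signals of 21.1 and 19.1. The libraries nearly coincided at T08B6.62, at 1.70 and 1.71 times the median region, and gave 1.24 and 1.56 times at R07E5.16. F32B5.9, with 17.7, and T08G5.11, with 17.5, were both stronger in replicate 2, at 1.31 and 2.24 times for F32B5.9 in replicates 1 and 2, and 0.961 and 1.5 times for T08G5.11. T10H4.17 had 15.7 and smy-9 had 14.6. T10H4.17 lies in an exon of cyp-34A2, a cytochrome P450 gene, and smy-9 was unlisted in replicate 1. The remaining 14 listed members had pooled signals between 8.16 and 13.5, or 0.793 to 1.31 times the median region.

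The libraries overlapped in part. Of the 99 members, 15 were listed in both libraries, or 15.2%, against 20.1% of all nuclear genes and 8.41% of those in the length range. A further 8 were listed in replicate 1 alone and 15 in replicate 2 alone, and 61 were in neither. Over the 15 members in both, the multiple of replicate 2 divided by that of replicate 1 had a median of 1.1 and ran from 0.511 at C52E4.8 to 3.66 at F38E11.10. It exceeded 3 at F38E11.10 and at F54D8.7 (3.04), and replicate 2 was the higher in 10 of the 15. With 2 libraries these spreads are the only error available. Of the 71 members not in the pooled list, 59 were in neither library, and F11A5.14 was in both, at 1.12 and 0.732 times the median region.

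Other short RNA genes were set beside the members. The 30 genes of the snRNA biotype left out of the members are called the spliced leader class here. Besides the sls- genes, it holds rpr-1 and mrpr-1 where they have that biotype. Of these 30 genes 5 had a peak (16.7%) and 10 were in the pooled list (33.3%), with a median listed signal of 28.6. Of 346 snoRNA genes 20 had a peak (5.78%) and 35.8% were listed, and of 612 tRNA genes 23 had a peak (3.76%) and 264 were listed (43.1%). The members' 4.04% with a peak lay between the tRNA and snoRNA shares, and their 28.3% in the pooled list was below all 3 classes. Of 261 miRNA genes 1 had a peak (0.383%) and 45 were listed (17.2%), below the members on both counts, and the 20 rRNA genes had neither.

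The members fell into 7 families of at least 80% sequence identity, plus 18 members with no relative at that level. No family was named after a spliceosomal RNA here, because the annotation calls each gene only a small nuclear RNA. Textbook hallmark letters are given instead for the sup-6 and F08G2.10 families, and those of other families are not reported here. ACTTACC, which stands near the 5′ end of U1 snRNA and pairs with the 5′ splice site, was in 12 of the 14 RNAs of the sup-6 family, from base 3 at the median, and in 0.320% of 1249 other small RNA genes (snoRNA, tRNA and miRNA genes and the spliced leader class). GTAGTA, as in the part of U2 snRNA that pairs with the branch site, was in 18 of the 19 RNAs of the F08G2.10 family and in 3.68% of the other genes. A match is a description of letters and not a proof of function.

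Members of 6 of the 7 families were listed, a few in each. The W05B2.8 family, 23 genes with a median length of 102 bases, had 1 peak and 7 listed members. Next to W05B2.8 its strongest were F54D8.7 and T08B6.62. The sup-6 family of 14 genes had 1 peak and 6 listed members, led by sup-6, sup-39 and T08G5.11. One of its listed members, mir-1831, is a 22-base annotation inside sup-39 and shares its locus. The F38E11.10 family of 12 genes had 1 peak and 5 listed members, led by F38E11.10, F32B5.9 and F38E11.11, the last with a pooled signal of 9.55.

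The C52E4.8 family of 5 genes had 1 peak and 2 listed members, C52E4.8 and F10D2.13, the second at 9.26. The F08G2.10 family, the second largest with 19 genes of 187 bases at the median, had no peak and 3 listed members, F08G2.10, F08G2.9 and W07G1.8, with a median pooled signal of 10.3. The family of the smy genes smy-6, smy-7, smy-11, smy-12, smy-4 and smy-5 had 2 listed members, smy-6 at 13.5 and smy-7 at 12.6. F20D1.21 and F35B3.10 formed the smallest family and were both unlisted. Of the 18 single members 3 were listed, M163.13, T10H4.17 and smy-9.

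**Figure D2:**
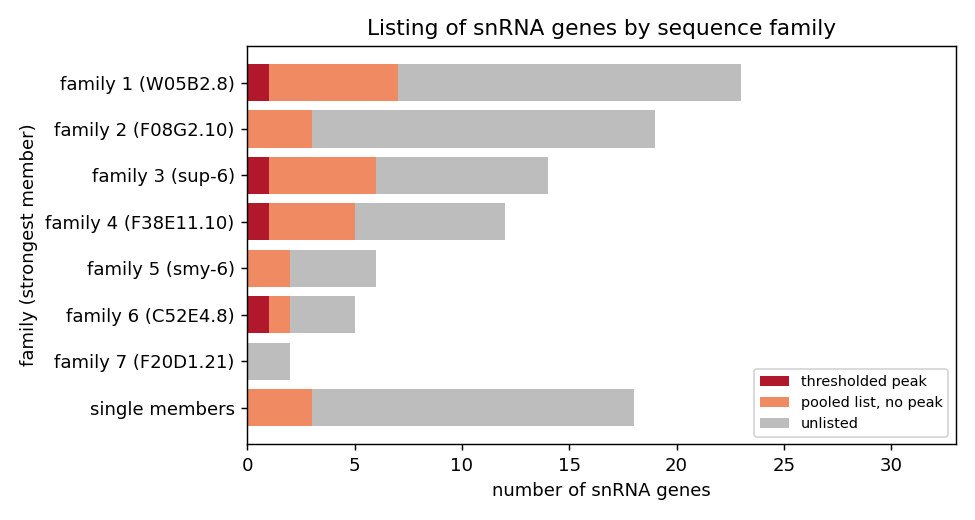
Number of snRNA genes (x axis) in each family of at least 80% sequence identity (y axis, named by its strongest or, where none is listed, one member), split into genes with a thresholded peak, genes in the pooled list without a peak, and unlisted genes. The families of W05B2.8, sup-6, F38E11.10 and C52E4.8 have 1 peak each, and the family of F08G2.10, with 19 genes, has none.

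Copies with the same RNA did not share a signal. The RNA of W05B2.8 is identical in 13 other genes, of which 3 were in the pooled list, with signals of 19.1 (R07E5.16), 12.7 (C28A5.7) and 8.32. The other 10 were unlisted, among them 6 neighbouring copies named K09B11.11 to K09B11.16. The RNA of C52E4.8 is identical in T11F9.15, which was unlisted in all 3 lists. That of F38E11.10 is identical in F38E11.11, with pooled signals of 33.7 and 9.55. The upstream DNA of such copies was alike to different degrees. Of the 100 bases upstream, counted at the same positions with no shift allowed, W05B2.8 shared 50 with R07E5.16, 45 with C28A5.7 and 53 with the third listed copy. It shared 51 with Y17G9A.90 and 47 with K09C6.12, which were unlisted, and 22 to 25 with the other 8 unlisted copies. With F54D8.7, T08B6.62 and Y17G9A.85 it shared 50, 55 and 54. Among the 13, copies sharing 45 to 53 bases were thus both in and out of the pooled list. Those sharing 22 to 25 were all outside it, though replicate 2 listed F54C8.8, at 1.02 times the median region. The share of 30-base words around the gene that occur once in the genome also differed. It was 31.9% to 51.5% in copies sharing 22 to 25 bases, and 73.6% at W05B2.8. The 3 listed copies had 61.7%, 37.6% and 69.5%, and Y17G9A.90 and K09C6.12 had 69.2% and 46.4%. Its part in the listing was not tested. A count with no shift misses likeness that is offset. In K09B11.11 the match to the letters described below began at -66, against -67 in W05B2.8. C52E4.8 shared 37 bases with T11F9.15, and F38E11.10 shared 30 with F38E11.11.

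The upstream letters were found by counting every 6-base word in the 100 bases before each RNA, on its own strand. AACCCG was the most frequent, in 33 members (33.3%, against 0.970% of all nuclear genes), and its first base lay at -58 at the median. Of the words that do not overlap it, TGTCGG was the most frequent, in 30 members (30.3%, against 1.13%), with its first base at -47 at the median. On either strand the shares over all nuclear genes were 1.71% and 1.98%. The usual distance between the words left 5 bases between them, and the best match to the 12 letters at that spacing was then scored for each gene. This score, and its limit of 3 mismatches, was set after the words had been seen. The words were picked for their frequency in these same members, so a higher share in members than in other genes was partly built in.

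At most 3 mismatches were found in 71 of the 99 members (71.7%), against 662 of 46787 other nuclear genes (1.41%). The same was found in 24 of the 30 genes of the spliced leader class. The share was 12.7% in snoRNA genes, 3.43% in tRNA genes and 1.27% in protein-coding genes. In the members the match began at -58 at the median. Among members in the lists the match was nearly general. It was present in all 4 with a peak, in 22 of the 24 listed without a peak and in 45 of the 71 unlisted. The median number of mismatches was 1.5, 2 and 3 in these 3 sets. The 2 listed members without the match were M163.13, with 4 mismatches, and T10H4.17, with 5. Counted the other way, 26 of the 71 members with the match were in the pooled list (36.6%), against 2 of the 28 without it (7.14%). The difference lay in members with repeated surroundings, where under 90% of the 30-base words of a window around the gene occur once in the genome. There 24 of 60 with the match and 0 of 15 without it were listed, while among members at 90% or more 2 of 11 with the match (18.2%) and 2 of 13 without it (15.4%) were listed. Members of a family share upstream letters as well as RNA, so these genes are not independent observations.

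**Figure D3:**
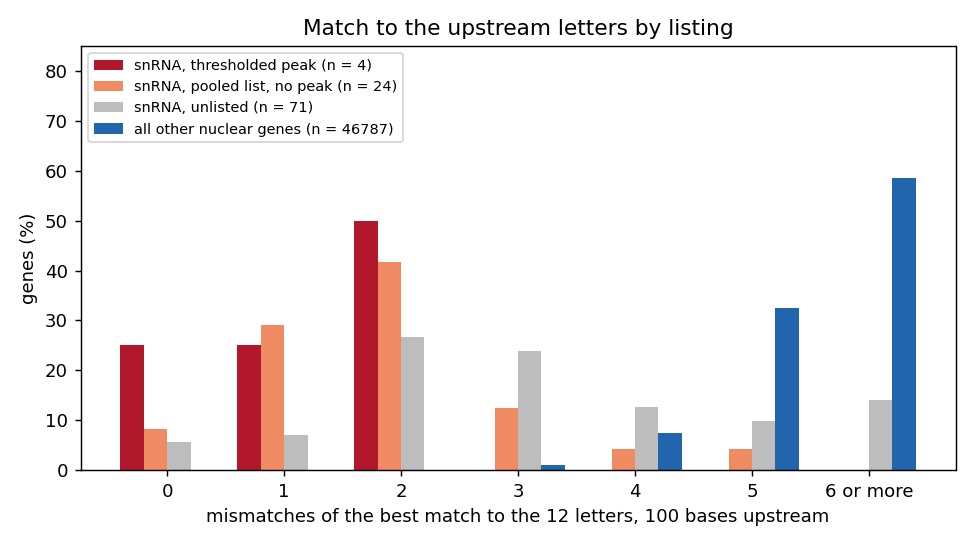
Share of genes (y axis, percent) by the number of mismatches of the best match to the 12 letters in the 100 bases upstream (x axis), for snRNA genes with a peak, in the pooled list without a peak and unlisted, and for all other nuclear genes. The snRNA genes with a peak have 0 to 2 mismatches, and most other nuclear genes have 5 or more.

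TATATAA stood upstream of 18 members (18.2%), with its first base at -30 at the median, against 2.43% of all nuclear genes on the same strand. The broader TATAAA was in 12 members (12.1%), close to its 10.9% over all nuclear genes. Of the 18 members with TATATAA, 15 belonged to the W05B2.8 family. In that family all 7 members in the pooled list were among the 15 with TATATAA, and the 8 without it were all unlisted there. Of these 8, F54C8.8 was listed in replicate 2, at 1.02 times the median region. The same 7 also had at most 3 mismatches to the other letters. In the 12 members that had both, the 17-base match began between -67 and -66, further from the RNA than the -58 that was the median of all members with the match. In the printed stretches this is seen in W05B2.8, F54D8.7, T08B6.62 and R07E5.16. F32D1.12, of the same family and unlisted, has neither.

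Many members with the match were unlisted, 45 of 71. K09C6.12, a copy with the RNA of W05B2.8, had 2 mismatches and TATATAA at -31, as W05B2.8 did, and was unlisted in all 3 lists. Y17G9A.90, another such copy, had 1 mismatch and no TATATAA and was also unlisted in all 3 lists. K09B11.11 to K09B11.16 all carried TATATAA at -30 and were all unlisted. They had 3 or 4 mismatches to the other letters, so only some of them had the match. In the F38E11.10 family all 12 members had the match and 5 were listed. Of its members Y69A2AR.36, ZK897.4 and F07C6.5 had 0 mismatches and were unlisted in the pooled list, whereas F38E11.10 had 2. In the sup-6 family all 14 members had the match and 6 were listed. In this family mir-1831 and sup-39 overlap, as do T27E4.22 and T27E4.12. The genes of each pair share the same match, which was counted for both, here and in the counts over all members.

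The position of the summits was bounded by the way regions were chosen, since a region had a fixed width and had to overlap the RNA to be counted. Over the 28 listed members the pooled summit was 43 bp inside the RNA at the median and ranged from -99 bp (F42C5.12) to 260 bp (ZK897.2). It was upstream of the RNA in 9 members, inside it in 14 and past its 3′ end in 5. In 20 of the 28 it was within 100 bp of the 5′ end. With the strongest regions of each library the median was -9 bp in replicate 1 (23 members) and 24 bp in replicate 2 (30 members). The summits do not separate promoter from transcript.

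**Figure D4:**
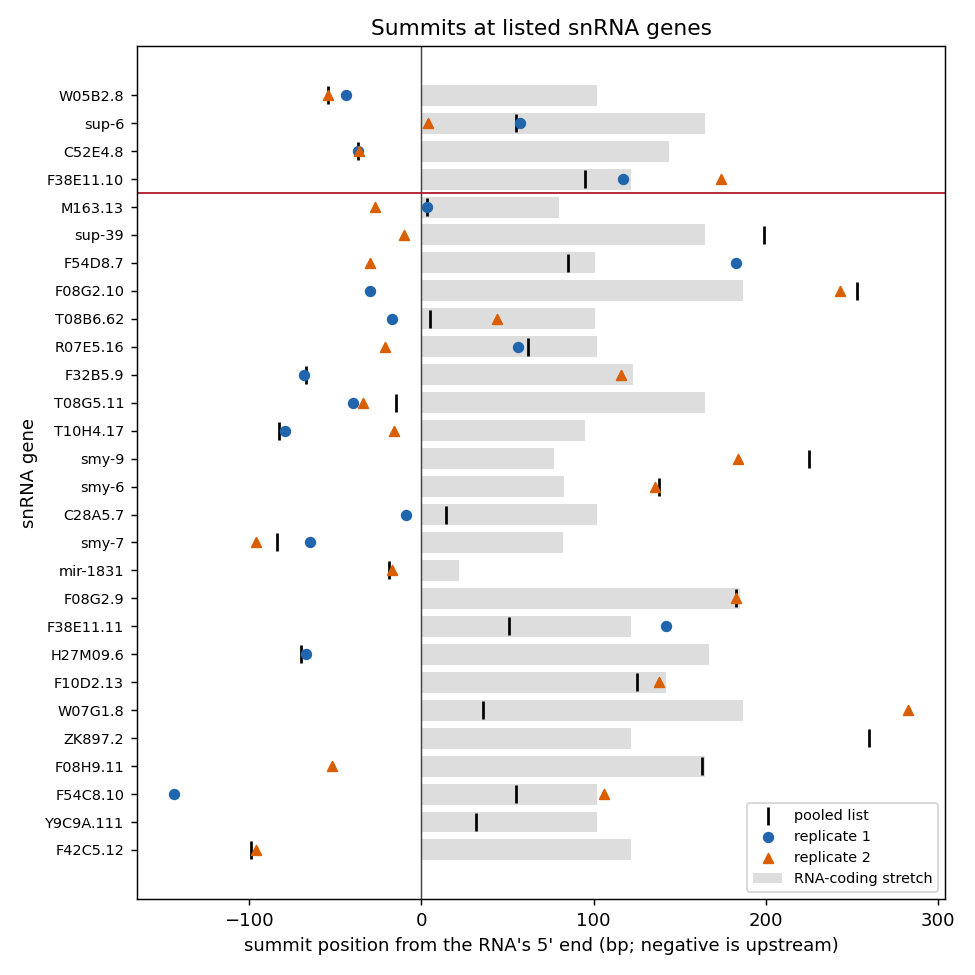
Position of the summit of the strongest region from the RNA's 5′ end (x axis, bp, negative is upstream) at the 28 listed snRNA genes (y axis, by falling pooled signal), for the pooled list and both libraries, with the RNA as a grey bar. The 3 lists coincide at C52E4.8, at -37 to -36 bp, and lie apart at F08G2.10.

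The genomic setting of the members was mixed. Of the 99, 39 lay between protein-coding genes, 48 in introns and 12 over exons. Of the 4 members with a peak, 2 lay between genes and 2 in introns, of the 24 others in the pooled list 8, 14 and 2 lay between genes, in introns and over exons, and of the 71 unlisted ones 29, 32 and 10. A protein-coding 5′ end was within 1 kb for 2 of 4 members with a peak, 14 of 24 listed without a peak and 25 of 71 unlisted. The GC content of a window of one region's width around the RNA had medians of 45.8%, 42.7% and 42.0% in these 3 sets and was highest at sup-6, at 55.2%. The regions of 21 of the 28 listed members also covered a protein-coding gene and those of 15 covered another non-coding RNA gene, so their signal cannot be assigned to the snRNA gene alone. Regions over no other gene, piRNA genes aside, were those of M163.13, smy-9 and smy-7.

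The members differed in how much of their sequence is repeated, and the median and a limit of 90% went different ways. The same window around each member was scored by the share of its 30-base words that occur once in the genome, and the medians were 70.2% for members with a peak, 67.3% for those listed without a peak and 63.1% for unlisted ones. The share was 90% or more in 24 members, of which 4 were listed (16.7%) and none had a peak, against 24 listed of the 75 others. In snoRNA genes the order was the other way round, with 38.0% of 303 listed at 90% or more and 20.9% of 43 below. Members with an identical copy were listed in 12 of 32 cases, and the others in 16 of 67. The sources used here do not say how reads with several possible positions were treated, and the part of repeats in these counts was not tested.

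The next counts cover genes of Sm and LSm proteins, of other snRNP and assembly proteins, and of snRNA transcription and processing. These genes were counted by a peak summit within 1 kb of their 5′ end, which 1.03% of 19973 protein-coding genes had. Among 15 genes of Sm and LSm proteins 1 had a peak, snr-4, with the region shared with C52E4.8. Of these 15 genes 13 had a pooled region whose summit lay within 1 kb, a background of 51.7% over protein-coding genes. They included snr-6, snr-3 and snr-7, with pooled signals of 21.6, 21.2 and 20.8, while gut-2 and lsm-1 had none. Among 12 genes of other snRNP and assembly proteins 1 had a peak and 8 a pooled region. The peak was that of prp-8, which encodes a core spliceosomal protein, with its summit at -360 bp, a signal of 32.1, rank 218, and 3.04 and 1.69 times the median region in replicates 1 and 2.

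Among the 19 annotated genes for snRNA transcription and processing 1 had a peak and 11 a pooled region. The peak was that of ints-4, an Integrator subunit in the complex that cuts the 3′ ends of snRNAs, with a signal of 35.4, rank 162, 63 bp past the 5′ end, and 3.56 and 3.37 times the median region in replicates 1 and 2. Of the genes for SNAPc subunits, snpc-4 had a pooled signal of 17.4 and snpc-3.4 of 10.6, and snpc-1.1, snpc-1.2, snpc-1.3, snpc-3.1 and snpc-3.2 had no region within 1 kb. In all, 3 of 46 such genes had a peak and 32 a pooled region.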

How the data were processed

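NHR-76 ChIP-seq regions from 2 libraries, biological replicates 1 and 2 per the labels, were used as deposited on ce11, as narrowPeak rows. The authors, per the deposited listings, made each library's list from its alignments and a control, a pooled list from both libraries' reads, and the thresholded list from these by the irreproducible discovery rate. The deposited signal value of a region is the authors' own, with no stated scaling to depth, and was used to rank and describe regions within a list. The deposited −log10 q-value was used for a limit of 0.05. The sources used here do not give the caller, aligner, read depth or thresholds. The control was not used, so no background from control samples and no counting interval can be given.

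Genes were taken from Ensembl release 115 and names, by coordinates, from RefSeq, where all 99 members matched. Ensembl gives several copies 1 shared symbol, so RefSeq names are used. Sequences are RefSeq's WBcel235, and some RNA sequences are not reported here. A gene took the strongest region overlapping it by at least 1 bp. Families were built by global alignment (match 1, gap opening cost 5, gap extension cost 2), joining members at 80% identity over the shorter RNA. Named members were those with a peak, the 10 strongest without a peak, those differing more than 3-fold between libraries, and up to 3 per family. The members and gene lists were chosen with earlier results of these data known. No test was possible with 1 group of 2 libraries. Alternatives covered the overlap, peak strength, q-value, single libraries, merged or identical genes, ce10 and the identity limit. Overlap and distance code was tested on simulated data. Tools were Python 3.11.15, NumPy 2.4.6, Biopython 1.88 and Matplotlib 3.10.9.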

Additional observations from a re-analysis of the deposited data

How the results depend on the processing

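The count of 4 members with a peak was the same with an overlap of at least 50 bp and with summits within 250 bp. It was also the same with overlapping or identical genes merged, and with peaks that had a ce10 counterpart. Merging could not change it, since the 4 genes lie on 4 chromosomes and in 4 sequence families. The ce10 lists come from the same libraries. The count was 1 among the peaks stronger than the median peak and 7 with pooled regions at a q-value of 0.05 or less. Taken from the 248 strongest regions of a single library it was 4 in either, with 2 genes in common. The 28 members in the pooled list became 26 at 50 bp, 34 within 250 bp and 22 with identical RNAs counted once, and ran from 23 to 30 with a single library. In an alternative chosen after seeing the data, members with at least 90% of 30-base words unique held 0 of the peaks and 4 of the listed genes. At a q-value of 0.05 or less in both libraries, the 15 members in both became 4. The share of all nuclear genes at that limit is not given here, so this count has no background beside it. The median signal of 1.36 times the median region was 1.23 with the region nearest to the gene, and 1.23 to 1.39 with a single library. The median summit, 43 bp, was -9 bp in replicate 1 and 24 bp in replicate 2. There were 9 families at 70% identity and 7 at 80% and 90%. The causes were not tested. No paired analysis was possible because there is 1 group. With 2 libraries and unknown depth, an unlisted gene is only one without a region among the 30000 listed, not one shown to be unbound.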
